A study of Mus musculus with 16 samples.

Results

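Potassium channel subunits of the mouse hippocampus were examined as a gene family, taken as every measured gene whose symbol is Kcn followed by letters and a number. This gave 86 of the 22180 genes on the array, in 17 subfamilies. A gene with several probe sets of its own was read from the brightest of them on average. The 86 members had 93 such probe sets, and 7 members had more than 1.

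Hippocampal RNA was measured on 16 Affymetrix arrays, 1 per mouse, in 4 groups of 4 formed by genotype and treatment. All mice were C57BL/6, aged 8 to 10 weeks, carried a glial Cre recombinase and received lithium chloride at 10 mEq/kg, followed 18 h later by saline or by pilocarpine at 65 mg/kg, which induced status epilepticus (SE), a prolonged seizure. Control mice were wild type apart from the Cre, and Astro-D2KO mice also carried floxed Dio2, the gene of the type 2 deiodinase, an enzyme that activates thyroid hormone. The labels do not state the promoter of the Cre, the time from pilocarpine to collection or any batch of hybridisation. Every SE mouse and no saline mouse received pilocarpine, so drug and seizure cannot be told apart.

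Potassium channels let potassium leave the cell and thereby set the resting potential, end action potentials and limit repetitive firing. Voltage-gated (Kv) channels are built from pore-forming alpha subunits, from silent alpha subunits that act only in partnership with Kv2 alpha subunits, and from auxiliary proteins such as the Kv beta, KChIP and KCNE families. Inward rectifiers (Kir) and two-pore-domain (K2P) channels hold the resting potential, and calcium- or sodium-activated channels follow intracellular ions. In hippocampal neurons these currents set the threshold for firing, and in astrocytes Kir channels take up potassium released during activity.

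Levels are on the log2 scale of the deposited values, so a difference of 1 is a doubling. Levels of different genes are compared only to place a gene above or below the median level of all genes. Changes are SE minus saline with the standard error of the fit (written ±) from limma, and adjusted p-values are two-sided and corrected by Benjamini-Hochberg over all 22180 genes, with a threshold of 0.05. Dio2, the targeted gene, stood 2.57-fold lower in Astro-D2KO than in control mice under saline (exact permutation p = 0.0286, the smallest that 4 against 4 can give) and 2.66-fold lower after SE (exact permutation p = 0.0571). The array labelled Astro-D2KO SE replicate 1 went against its label, with Dio2 at 8.91 beside 7.03 to 7.17 in the other 3 arrays of its group. In the array labelled control SE replicate 4, Npas4, a transcription factor induced by neuronal activity, stood at 8.96 beside 11.13 to 11.57 in the other 3. Dio2 was also low in that array, at 7.99 beside 9.11 to 9.51 in the other 3. Without both of these arrays Dio2 averaged 9.29 in control SE and 7.10 in Astro-D2KO SE mice, 4.55-fold lower (exact permutation p = 0.1, the smallest that 3 against 3 can give). Both arrays stood out in Dio2 itself, so the wider gap follows from leaving them out and is no separate check of the labels. The counts of members that passed are also given without both arrays below.

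Averaged over genotypes, 7 of the 86 members rose after SE and 20 fell. The corresponding shares of all genes were 12.1% higher and 20.6% lower, and those of the members 8.14% and 23.3%, so neither share lay far from the background. The median change of the members was -0.04, beside -0.01 over all genes. At least a 1.5-fold change was reached by 3 members that rose (Kcnf1, Kcna4 and Kcnk10) and by 1 that fell (Kcna2), where 3.46% of all genes rose and 1.87% fell by that much. Without both doubted arrays 6 members rose and 17 fell, beside 11.3% and 19.9% of all genes. Kcnj2 then joined the rises of at least 1.5-fold, with 0.61 in place of 0.48, and Kcna2 no longer reached a fall of that size, with -0.58 in place of -0.65, though it still passed (adjusted p = 1.81e-04).

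The members lay more often than not among the brighter genes, where calls were more frequent. Of the 59 members at or above the median level of all genes, 6 rose and 19 fell, where 17% and 34.6% of all genes at such levels did so. The shares of these 59 members were 10.2% and 32.2%. Without both doubted arrays 5 of the 59 (8.47%) rose and 16 (27.1%) fell. The shares of all brighter genes were not counted without those arrays. Of the 27 members below the median, 1 rose and 1 fell, beside 7.16% and 6.5% of all dimmer genes.

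**Figure D1:**
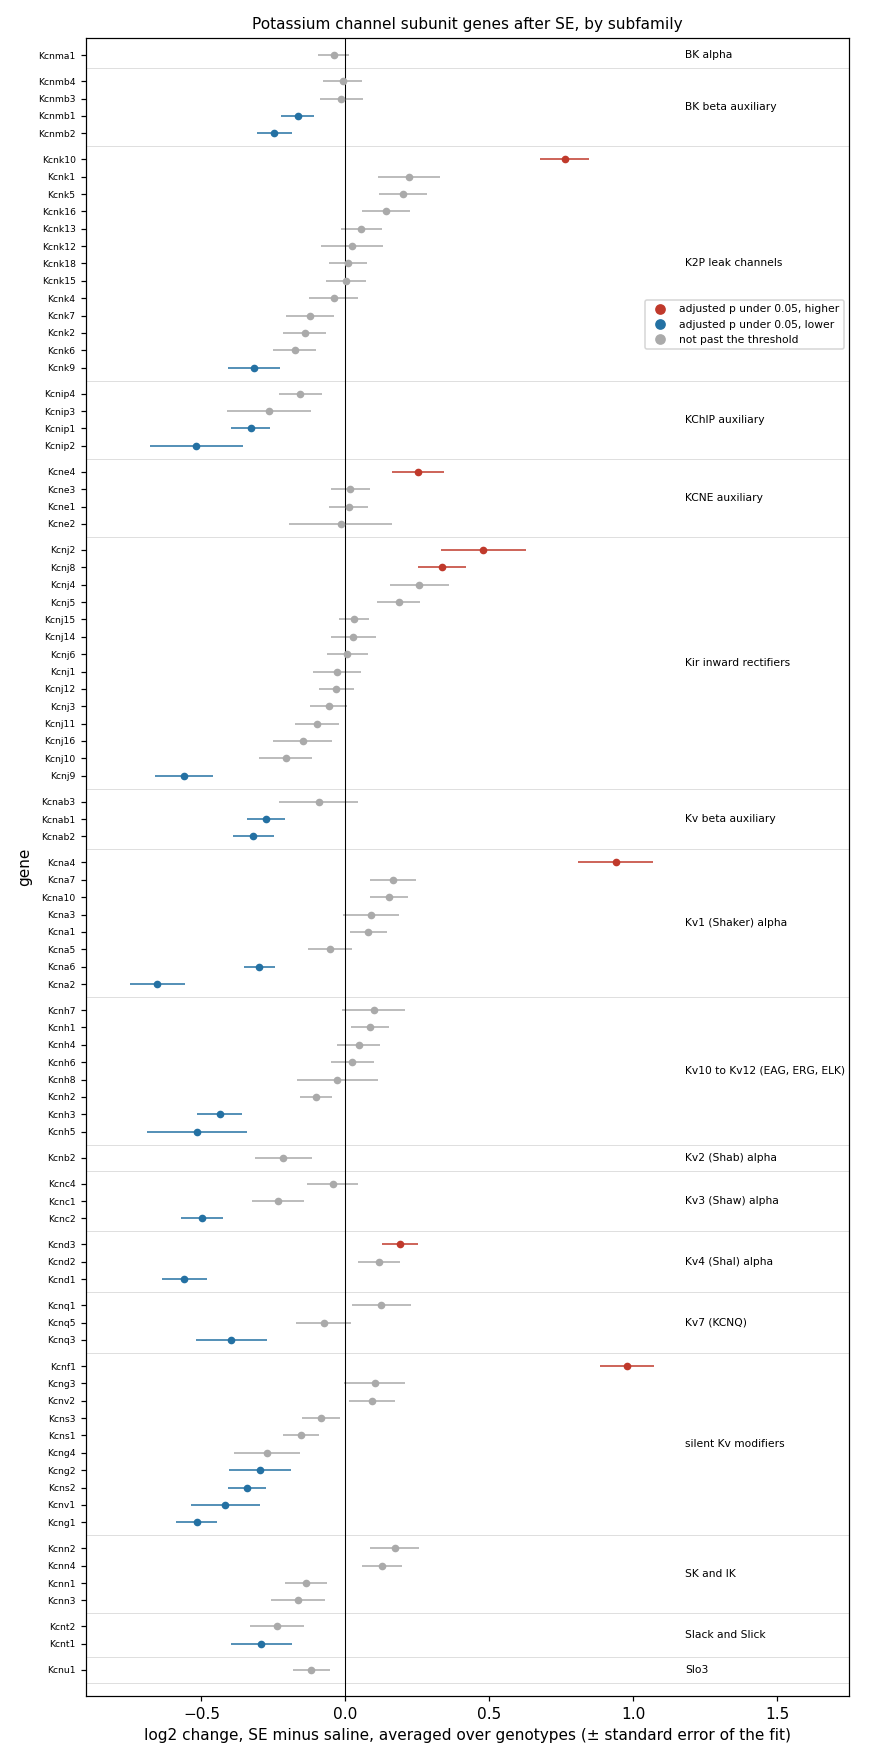
Change after SE of each of the 86 members, averaged over genotypes (log2, points, with the standard error of the fit as bars), grouped by subfamily. Red points passed an adjusted p of 0.05 as higher, blue as lower and grey did not pass; Kcnf1, Kcna4 and Kcnk10 stand apart to the right and Kcna2 lies farthest to the left.

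The promoters of the 3 members with the largest rises are shown because each of these genes rose in both genotypes. They are the 250 bases before each annotated start from RefSeq (GRCm38.p6), 5′ to 3′ on the strand of the gene, all in lower case because none of the motifs searched was found in them.
Kcnf1, chr12:17176889-17177138, minus strand: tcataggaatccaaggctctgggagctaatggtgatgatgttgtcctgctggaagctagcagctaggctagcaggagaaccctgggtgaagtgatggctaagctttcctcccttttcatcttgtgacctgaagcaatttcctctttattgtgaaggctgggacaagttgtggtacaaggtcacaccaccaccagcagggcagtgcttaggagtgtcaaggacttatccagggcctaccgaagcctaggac
Kcna4, chr2:107290339-107290588, plus strand: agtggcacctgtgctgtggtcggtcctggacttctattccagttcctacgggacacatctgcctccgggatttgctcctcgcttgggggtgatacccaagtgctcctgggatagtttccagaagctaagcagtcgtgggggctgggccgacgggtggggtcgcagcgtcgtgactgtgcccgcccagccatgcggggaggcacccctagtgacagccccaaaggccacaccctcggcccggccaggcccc
Kcnk10, chr12:98575128-98575377, minus strand: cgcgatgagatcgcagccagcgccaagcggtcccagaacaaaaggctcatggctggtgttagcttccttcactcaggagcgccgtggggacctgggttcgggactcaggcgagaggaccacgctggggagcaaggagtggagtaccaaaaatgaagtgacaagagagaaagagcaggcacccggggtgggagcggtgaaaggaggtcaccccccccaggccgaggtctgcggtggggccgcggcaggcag
Kcnk10, chr12:98578214-98578463, minus strand: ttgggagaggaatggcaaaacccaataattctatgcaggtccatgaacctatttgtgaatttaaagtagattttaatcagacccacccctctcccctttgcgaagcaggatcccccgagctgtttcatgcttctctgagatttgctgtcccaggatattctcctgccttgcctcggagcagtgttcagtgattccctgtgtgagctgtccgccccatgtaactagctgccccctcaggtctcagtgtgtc

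Promoter entries were matched for 66 of the 86 members. The motifs searched on both strands were the cyclic AMP response element TGACGTCA, the AP-1 site TGANTCA, where N is any base, and the EGR site GCGTGGGCG. The first was found in 0 of the 66 members (1.77% of all genes with an entry) and the EGR site also in 0 (0.622%). AP-1 matched 4 members, 6.06% of the 66 beside 7.82% of all genes, and none of these 4 was among the members that changed. The shorter TGACG, which is contained in the cyclic AMP response element and was added after the first results were seen, occurred in 13 of 66 members (19.7%) and in 19.8% of all genes, including Kcne4 and Kcnj8 among the 7 that rose (28.6%) and Kcna6, Kcnab2 and Kcnh5 among the 11 with an entry that fell (27.3%). A gene can have several windows, 1 per annotated start. Counted by window, TGACG occurred in 2 of 8 (25%) for the members that rose and 3 of 20 (15%) for those that fell. The share over all windows was 17.8%. A match is a description of the letters in this window and no more.

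Among the voltage-gated alpha subunits, the Kv1 (Shaker) group held both a large rise and the largest fall. Of its 8 members 1 rose (Kcna4), 2 fell (Kcna2 and Kcna6) and 5 did not pass, with changes from -0.05 to 0.17. Kcna4 encodes Kv1.4, a fast-inactivating A-type channel of axons. In control mice its saline arrays, replicates 1 to 4, read 8.38, 8.15, 7.93 and 7.85 and its SE arrays 8.76, 8.53, 9.11 and 9.17. In Astro-D2KO mice they read 8.30, 8.56, 7.99 and 8.32 under saline and 8.98, 9.44, 9.12 and 9.89 after SE. All SE arrays lay above all saline arrays of the same genotype. The change was 0.81 ± 0.19 in control mice (adjusted p = 0.00408) and 1.06 ± 0.19 in Astro-D2KO mice (adjusted p = 5.98e-04).

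The rise of Kcna4 rested on the choice of probe set. The dimmer of its 2 probe sets changed in the opposite direction, by -0.29 ± 0.10 averaged over genotypes (adjusted p = 0.0394 over the 23521 probe sets with 1 symbol), while the brighter rose by 0.94 ± 0.13. The dimmer probe set read 7.89 ± 0.19 (SD, n = 4) in control saline, 7.68 ± 0.24 in control SE, 7.90 ± 0.27 in Astro-D2KO saline and 7.53 ± 0.21 in Astro-D2KO SE mice. Its SE and saline arrays overlapped in both genotypes. It passed in neither control (-0.21, adjusted p = 0.360) nor Astro-D2KO mice alone (-0.37, adjusted p = 0.0885). With the mean of both probe sets the rise was 0.32 averaged over genotypes (adjusted p = 0.00143). The part of the transcript that each probe set covers was not examined.

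Kcna2 encodes Kv1.2, a low-threshold channel of axons. Its saline arrays read 9.31, 9.28, 9.19 and 9.41 in control and 9.26, 9.26, 9.31 and 9.32 in Astro-D2KO mice. After SE they read 8.49, 9.19, 8.84 and 8.37 in control and 8.49, 8.46, 8.48 and 8.80 in Astro-D2KO mice. Control SE replicate 2 reached the lowest control saline array, and the Astro-D2KO groups did not overlap. The fall was -0.65 ± 0.10 averaged over genotypes (adjusted p = 3.87e-05), with -0.58 in control and -0.73 in Astro-D2KO mice. Kcna6, which encodes Kv1.6, fell by 0.30 ± 0.05 (adjusted p = 2.49e-04), and its groups did not overlap in either genotype. Its other probe set changed by 0.01 and did not pass, and with the mean of both the change was -0.14 (adjusted p = 0.0458).

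The A-type Kv4 (Shal) channels of dendrites were split. Kcnd1 (Kv4.1) read 7.03, 6.90, 6.82 and 6.79 in control saline, 6.04, 6.45, 6.54 and 6.64 in control SE, 7.04, 7.02, 6.87 and 6.96 in Astro-D2KO saline and 6.14, 6.37, 6.30 and 6.47 in Astro-D2KO SE mice. Every SE array lay below every saline array, and the fall was -0.56 ± 0.08 (adjusted p = 2.62e-05). Kcnd3 (Kv4.3) read 7.86, 7.74, 7.60 and 7.65 in control saline and 7.97, 7.95, 7.77 and 8.09 in control SE mice. In Astro-D2KO mice it read 7.76, 7.95, 7.82 and 7.95 under saline and 8.02, 8.03, 8.16 and 7.86 after SE, so the groups overlapped in both genotypes. Its change was 0.19 ± 0.06 (adjusted p = 0.0274), and without both doubted arrays it no longer passed (0.16, adjusted p = 0.0767). Kcnd2, which encodes the main hippocampal Kv4 subunit, Kv4.2, changed by 0.12 ± 0.07 and did not pass (adjusted p = 0.25).

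The KChIP proteins are calcium-binding partners of Kv4 channels, and the changes of all 4 members were negative, of which 2 passed. Of all genes 20.6% fell, and 34.6% of those at or above the median level. Kcnip2 read 7.59, 7.84, 8.45 and 8.14 in control saline and 7.95, 7.26, 7.49 and 6.92 in control SE mice. In Astro-D2KO mice it read 7.80, 7.53, 8.15 and 7.24 under saline and 7.67, 6.93, 7.23 and 7.15 after SE. The arrays overlapped in both genotypes, and the fall passed averaged over genotypes (-0.52 ± 0.16, adjusted p = 0.0200) and in neither genotype alone. Kcnip1 fell by 0.33 ± 0.07 (adjusted p = 8.63e-04), while Kcnip3 (-0.26) and Kcnip4 (-0.16) did not pass.

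The Kv3 (Shaw) channels allow fast firing, above all of parvalbumin interneurons. Kcnc2 (Kv3.2) read 7.86, 8.12, 8.12 and 8.22 in control saline and 7.71, 7.81, 7.85 and 7.48 in control SE mice. It read 8.16, 7.97, 8.39 and 8.11 in Astro-D2KO saline and 7.63, 7.53, 7.43 and 7.54 in Astro-D2KO SE mice. All saline arrays lay above all SE arrays, and the fall was -0.50 ± 0.07 (adjusted p = 4.50e-05). Kcnc1 (Kv3.1) fell in Astro-D2KO mice (-0.43 ± 0.13, adjusted p = 0.0253) and differed by -0.04 in control mice. That difference between genotypes did not pass (interaction -0.38, adjusted p = 0.998). Kcnb2, the Kv2 subunit measured, changed by -0.22 ± 0.10 (adjusted p = 0.107), and Kcnc4 by -0.04.

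The silent subunits, which have no current of their own and alter Kv2 channels, held the largest rise in the family. Of their 10 members 1 rose (Kcnf1) and 4 fell. Kcnf1 (Kv5.1) read 6.96, 6.83, 6.45 and 6.83 in control saline and 7.43, 7.90, 7.55 and 7.55 in control SE mice. It read 6.56, 6.82, 6.53 and 6.49 in Astro-D2KO saline and 7.66, 7.45, 7.74 and 8.03 in Astro-D2KO SE mice. No SE array lay as low as any saline array, and the rise was 0.98 ± 0.09 averaged over genotypes, or 1.97-fold (adjusted p = 4.15e-07). It was 0.84 ± 0.13 in control and 1.12 ± 0.13 in Astro-D2KO mice.

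Kcng1 (Kv6.1) was among the silent subunits that fell. It read 7.67, 7.66, 7.46 and 7.45 in control saline, 7.17, 6.94, 6.87 and 7.08 in control SE, 7.73, 7.51, 7.37 and 7.33 in Astro-D2KO saline and 7.11, 7.07, 6.96 and 6.84 in Astro-D2KO SE mice. SE and saline arrays did not overlap, with a fall of -0.52 ± 0.07 (adjusted p = 2.25e-05). Kcnv1 (-0.42), Kcns2 (-0.34) and Kcng2 (-0.30) also fell. Of these Kcng2 (adjusted p = 0.0440) no longer passed without both doubted arrays (adjusted p = 0.0723) and failed in 13 of 25 alternatives in all.

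**Figure D2:**
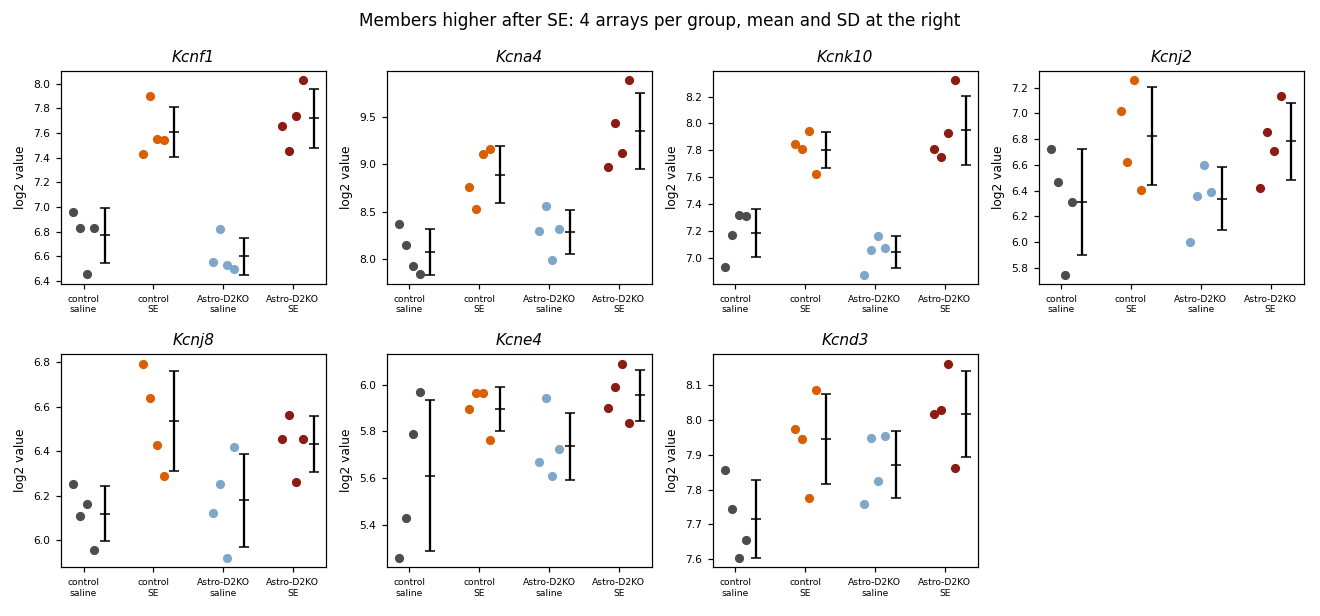
Log2 values of the 7 members that rose after SE, 1 point per array (4 arrays per group), with the mean and SD beside them. For Kcnf1 and Kcnk10 every SE array lies above every saline array; for Kcnj2, Kcne4 and Kcnd3 the groups overlap in both genotypes.

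**Figure D3:**
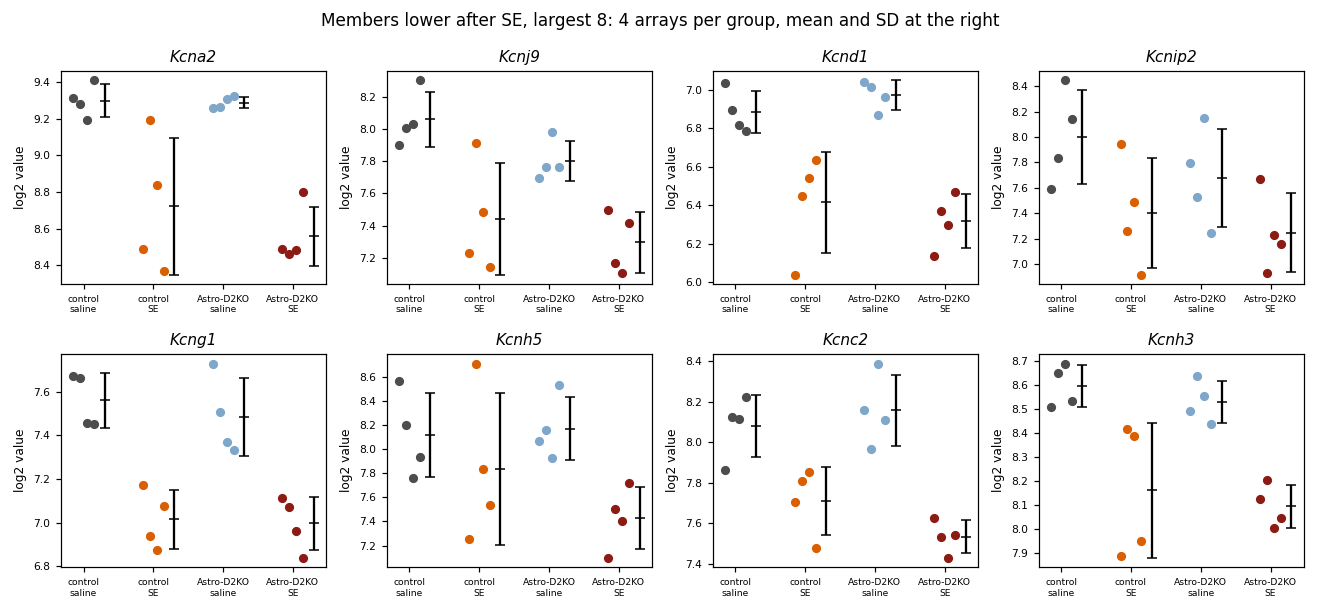
Log2 values of the 8 members with the largest falls after SE, 1 point per array, with the mean and SD beside them. For Kcnd1, Kcng1, Kcnc2 and Kcnh3 every SE array lies below every saline array; Kcnh5 overlaps in control mice and not in Astro-D2KO mice.

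The Kv10 to Kv12 group (EAG, ERG and ELK channels) had 8 members, 2 of which fell. Kcnh3 (Kv12.2), which is active near the resting potential of forebrain neurons, read 8.51, 8.65, 8.69 and 8.53 in control saline, 7.89, 8.42, 8.39 and 7.95 in control SE, 8.49, 8.64, 8.55 and 8.44 in Astro-D2KO saline and 8.12, 8.20, 8.00 and 8.04 in Astro-D2KO SE mice. The groups did not overlap, and the change was -0.44 in each genotype (adjusted p = 0.00803 in control and 0.00882 in Astro-D2KO mice). Kcnh5 (Kv10.2) read 8.57, 8.21, 7.77 and 7.94 in control saline and 7.25, 8.71, 7.84 and 7.54 in control SE mice. It read 8.07, 8.16, 7.93 and 8.54 in Astro-D2KO saline and 7.10, 7.50, 7.40 and 7.72 in Astro-D2KO SE mice. The control groups overlapped, and the array labelled control SE replicate 2 was the highest of all for this gene. The averaged fall of -0.51 ± 0.17 (adjusted p = 0.0294) did not pass without both doubted arrays (-0.41, adjusted p = 0.112).

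Among the Kv7 (KCNQ) channels, which carry the M-current that restrains repetitive firing, Kcnq3 fell by 0.40 ± 0.12 averaged over genotypes (adjusted p = 0.0187), and Kcnq1 (0.13) and Kcnq5 (-0.08) did not pass. The Kv beta proteins, cytoplasmic partners of Kv1 channels, showed falls of 2 of 3 members, Kcnab2 (-0.32) and Kcnab1 (-0.28). Of the 4 KCNE proteins, single-pass auxiliaries, Kcne4 changed by 0.25 ± 0.09 (adjusted p = 0.0381). Its control saline arrays read 5.26, 5.43, 5.79 and 5.97 and its control SE arrays 5.89, 5.96, 5.97 and 5.76, beside 5.67, 5.94, 5.61 and 5.72 under saline and 5.90, 5.99, 6.09 and 5.83 after SE in Astro-D2KO mice. These groups overlapped in both genotypes, and 10 of 25 alternatives gave a p over the threshold (up to 0.0824), among them those without control saline replicate 1 or Astro-D2KO SE replicate 3.

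Inward rectifiers were represented by 14 members, of which 2 rose and 1 fell. Kcnj2 (Kir2.1), a strong rectifier that holds the resting potential, read 6.72, 6.46, 5.75 and 6.31 in control saline, 7.01, 6.62, 7.25 and 6.41 in control SE, 6.00, 6.36, 6.60 and 6.39 in Astro-D2KO saline and 6.42, 6.85, 6.71 and 7.14 in Astro-D2KO SE mice. The arrays overlapped in both genotypes. The change of 0.48 ± 0.15 passed averaged over genotypes (adjusted p = 0.0180) and in neither alone. Without both doubted arrays it passed in control mice (0.65, adjusted p = 0.0334).

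Kcnj9 (Kir3.3), a subunit of the G protein-gated channels that carry slow inhibition, fell. It read 7.90, 8.01, 8.03 and 8.30 in control saline, 7.23, 7.91, 7.48 and 7.14 in control SE, 7.70, 7.76, 7.98 and 7.76 in Astro-D2KO saline and 7.49, 7.17, 7.11 and 7.42 in Astro-D2KO SE mice. Control SE replicate 2 lay just within the control saline range, and the Astro-D2KO groups were apart. The change was -0.56 ± 0.10 averaged over genotypes (adjusted p = 3.05e-04). Its partners Kcnj3 (-0.06) and Kcnj6 (0.01) did not pass, and Kcnj5 rose in Astro-D2KO mice (0.38 ± 0.11, adjusted p = 0.0156, beside -0.01 in control mice), a difference between genotypes that did not pass (interaction 0.39, adjusted p = 0.998).

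Kcnj8 (Kir6.1), the ATP-sensitive channel subunit typical of pericytes, read 6.25, 6.11, 6.16 and 5.95 in control saline and 6.79, 6.64, 6.43 and 6.29 in control SE mice, without overlap. In Astro-D2KO mice it read 6.12, 6.25, 5.92 and 6.42 under saline and 6.45, 6.56, 6.26 and 6.45 after SE, with overlap. The rise was 0.34 ± 0.08 averaged over genotypes (adjusted p = 0.00449). Of 10 pericyte and smooth muscle markers measured, 0 rose and 5 fell averaged over genotypes, while 4 fell in control and 1 in Astro-D2KO mice, and the mean level of that list was 7.17 to 7.28 in control saline, 6.76 to 7.05 in control SE, 6.93 to 7.20 in Astro-D2KO saline and 6.83 to 6.99 in Astro-D2KO SE mice. The part of cell number in the Kcnj8 values was not tested. In whole hippocampus, fewer cells of a type and less RNA per cell cannot be told apart.

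The astrocyte channels Kcnj10 (Kir4.1), the main potassium uptake channel of astrocytes, and Kcnj16 (Kir5.1) changed by -0.21 ± 0.09 (adjusted p = 0.0925) and -0.15 ± 0.10 (adjusted p = 0.303) and did not pass. Of 12 astrocyte markers 0 rose and 4 fell. Kcnk13, a K2P channel of microglia, changed by 0.06, while 6 of 9 microglia markers fell and 0 rose.

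Of 13 K2P channels, which carry the background leak current, 1 rose and 1 fell. Kcnk10 (TREK-2) responds to stretch and to lipids. It read 6.93, 7.18, 7.32 and 7.32 in control saline, 7.84, 7.81, 7.94 and 7.62 in control SE, 6.88, 7.06, 7.17 and 7.07 in Astro-D2KO saline and 7.81, 7.75, 7.93 and 8.32 in Astro-D2KO SE mice. All SE arrays lay above all saline arrays. The rise was 0.76 ± 0.09 (adjusted p = 2.45e-06), with 0.62 in control and 0.91 in Astro-D2KO mice. Kcnk9 (TASK-3) fell by 0.32 ± 0.09 (adjusted p = 0.0114).

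Of the calcium- and sodium-activated channels, the large-conductance pore gene Kcnma1 changed by -0.04 and the 4 SK and IK genes by -0.16 to 0.17, none of which passed. Kcnmb2 (-0.25) and Kcnmb1 (-0.17), auxiliary beta subunits of the large-conductance channel, fell, as did Kcnt1 (Slack, -0.29 ± 0.11, adjusted p = 0.0412). Neither Kcnt1 (adjusted p = 0.104) nor Kcnmb1 (adjusted p = 0.0996) passed without both doubted arrays, and they failed in 15 and 8 of 25 alternatives. Kcnmb4 has 2 probe sets that differed: the brighter changed by -0.01 and did not pass, and the dimmer rose by 0.31 ± 0.08 (adjusted p = 0.00502). This dimmer probe set, at 5.92 on average, passed in Astro-D2KO mice (0.51 ± 0.11, adjusted p = 0.00347). In control mice it did not pass (0.11 ± 0.11, adjusted p = 0.534). Among the other members with 2 probe sets, Kcnab3, Kcnj3, Kcnma1 and Kcnq5, neither probe set passed averaged over genotypes.

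**Figure D4:**
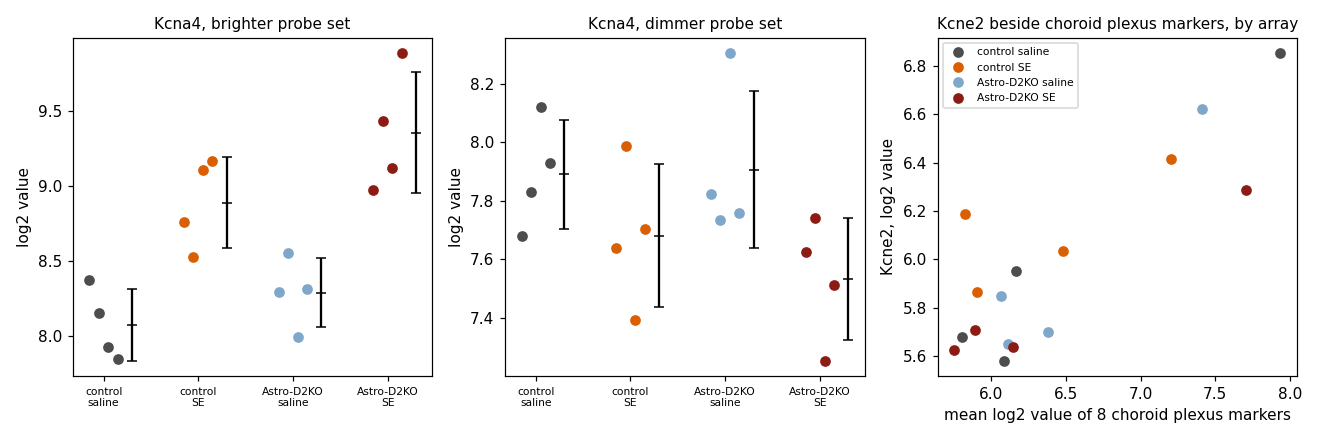
Left and middle, log2 values of the brighter and the dimmer Kcna4 probe set by array, with mean and SD. After SE the brighter is higher, and the dimmer is lower on average with arrays that overlap in both genotypes. Right, log2 value of Kcne2 against the mean of 8 choroid plexus markers, 1 point per array; the same 4 arrays are highest on both axes.

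Kcne2, an auxiliary subunit abundant in choroid plexus epithelium, had the largest spread within groups of any member, with a pooled SD of 0.42 beside a median of 0.16 over the members. The 4 arrays with the highest Kcne2 were 1 in each group, namely replicate 3 of control saline at 6.85 and of Astro-D2KO saline at 6.62, replicate 1 of control SE at 6.41, and the fourth Astro-D2KO SE array at 6.29. These were also the 4 arrays with the highest mean of 8 choroid plexus markers, at 7.93, 7.41, 7.21 and 7.70 in the same order, where all arrays ranged from 5.75 to 7.93. None of those markers passed the threshold after SE, and the part of choroid plexus tissue in the Kcne2 values was not tested. Kcnj13, another choroid plexus channel, is not analysed here because its probe set is shared with other symbols.

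In control mice alone 4 members rose and 9 fell, 4.65% and 10.5% of the 86, beside 8.42% and 13.7% of all genes. In Astro-D2KO mice 4 rose and 14 fell, 4.65% and 16.3%, beside 7.49% and 12.6% of all genes. Without both doubted arrays 7 (8.14%) rose and 7 (8.14%) fell in control mice, beside 7.81% and 13.4% of all genes. In Astro-D2KO mice 4 (4.65%) then rose and 15 (17.4%) fell, beside 6.83% and 11.4% of all genes. The change in the 2 genotypes, which share no arrays, had the same sign for 67 of the 86 members, a count not made over all genes. The correlation across the members was r = 0.821 (Spearman 0.728), beside r = 0.867 across all genes. Of the 13 members that passed in control mice 10 (76.9%) passed in Astro-D2KO mice, which is 55.6% of the 18 that passed there. Of all genes the 3270 that passed in both were 66.6% of those that passed in control and 73.3% of those that passed in Astro-D2KO mice. Without both doubted arrays 8 members passed in both, 57.1% of 14 in control and 42.1% of 19 in Astro-D2KO mice, beside 60.3% and 70.1% of all genes, and 2 of the original 10, Kcnab2 (adjusted p = 0.0668) and Kcnc2 (adjusted p = 0.0586), did not pass in control mice. The 3 that passed in control mice and not in Astro-D2KO mice were Kcnab1, Kcnj8 and Kcns2, and no interaction passed for any member.

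**Figure D5:**
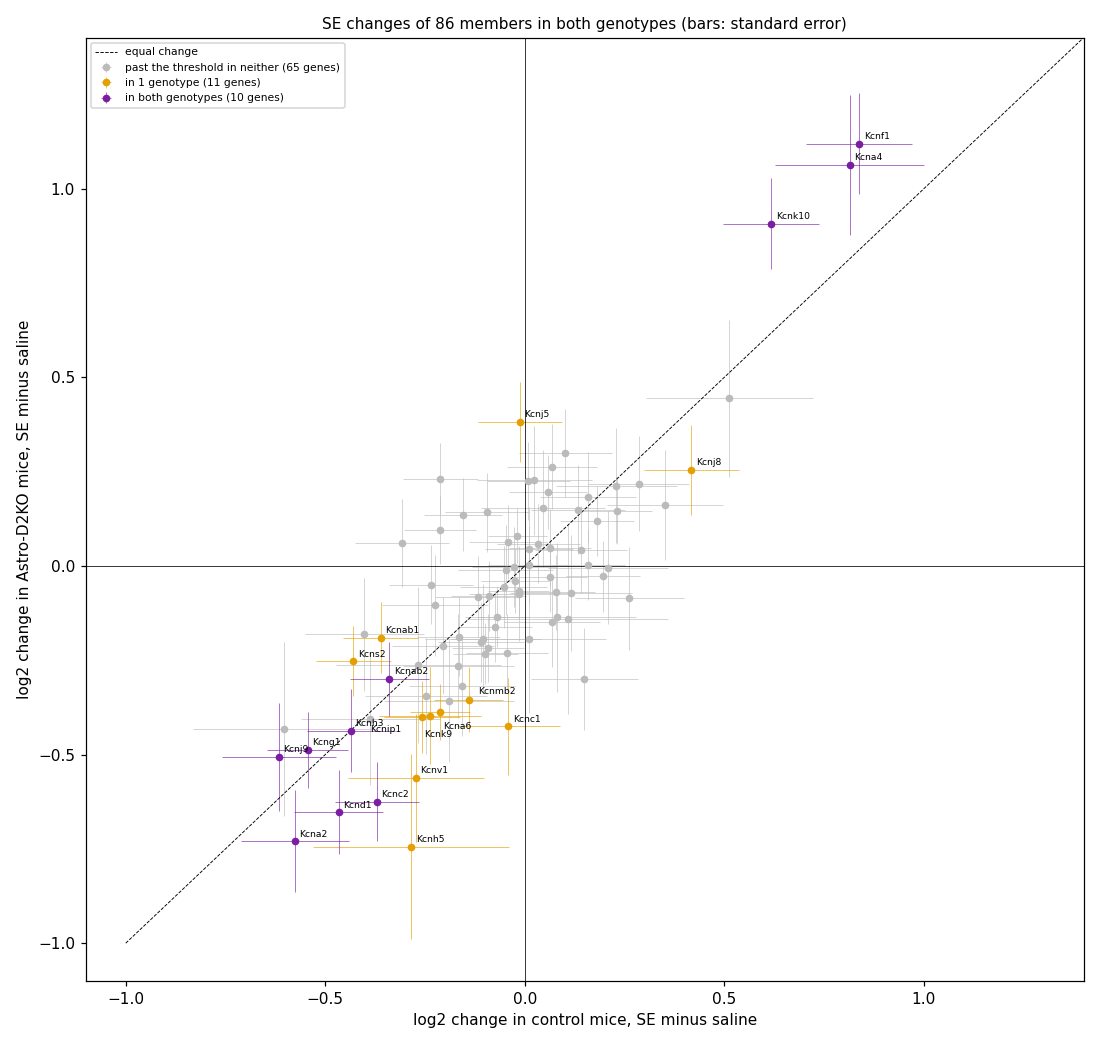
Change after SE in control mice (x axis) against Astro-D2KO mice (y axis), log2, for the 86 members, with standard errors of the fit; the dashed line marks equal change. Purple members passed in both genotypes (10), orange in 1 (11) and grey in neither (65).

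Genotype alone changed no member at the threshold. Of all genes 0% passed between Astro-D2KO and control mice under saline, 0% after SE and 0% for the interaction, in which the change after SE of control mice is subtracted from that of Astro-D2KO mice. At an unadjusted p under 0.05 in limma, 1 member (1.16%) differed under saline beside 885 of all genes (3.99%), 10 members (11.6%) after SE beside 1358 (6.12%), and 7 members (8.14%) for the interaction beside 1031 (4.65%). Without both doubted arrays 18 members (20.9%) were under that p after SE beside 2508 of all genes (11.3%), and 8 (9.3%) for the interaction beside 1479 (6.67%), and again no member passed the adjusted threshold, which 5 of all genes did after SE. Of the 112 cell type markers listed below, 16 (14.3%) were under that p after SE with all arrays, among them 8 of 9 oligodendrocyte markers. Without both doubted arrays 28 markers (25%) were. The members with the smallest p under saline were Kcnh1 (0.22), Kcnh6 (-0.20) and Kcnj9 (-0.26), with an adjusted p of 0.999 each.

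After SE they were Kcnk18, Kcnj5 and Kcnt2. Kcnk18 (TRESK), a K2P channel of sensory neurons, read 5.21, 5.14, 5.35 and 5.05 in control SE and 5.57, 5.53, 5.57 and 5.70 in Astro-D2KO SE mice. These arrays did not overlap, and the difference was 0.41 (95% interval 0.21 to 0.60, adjusted p = 0.532). The interval is not adjusted for the choice of this gene by its small p. Kcnj5 read 5.30, 4.95, 5.12 and 5.18 in control SE and 5.44, 5.54, 5.61 and 5.41 in Astro-D2KO SE mice, a difference of 0.36 (adjusted p = 0.624). Kcnk18 and Kcnj5 averaged 5.38 and 5.23 over all arrays, below the median level of all genes, 6.26. Kcnt2 (Slick) read 8.09, 8.27, 8.40 and 7.89 in control SE and 8.01, 7.74, 7.70 and 7.62 in Astro-D2KO SE mice, a difference of -0.39 (adjusted p = 0.677). Under saline Kcnt2 averaged 8.32 in control and 8.09 in Astro-D2KO mice, and its interaction was -0.16 (adjusted p = 0.998). The differences after SE without both doubted arrays were 0.37 for Kcnk18, 0.40 for Kcnj5 and -0.57 for Kcnt2, with adjusted p-values of 0.215, 0.244 and 0.140. For the interaction the smallest p belonged to Kcnk18 (0.44), Kcnj5 (0.39) and Kcnj3 (0.31), with an adjusted p of 0.998 each.

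Proteins that bind or modify these channels were followed through a separate list of 25 genes, 21 of them measured. Averaged over genotypes 2 rose (9.52%) and 7 fell (33.3%), beside 12.1% and 20.6% of all genes. Of genes at or above the median level 17% rose and 34.6% fell, so the share of partners that fell was near that of brighter genes. The rises were of Lrrc26 (0.37) and Lrrc52 (0.20), gamma subunits of the large-conductance and Slo3 channels. Both were dim, averaging 6.06 and 4.93 over all arrays, below the median level of all genes, 6.26. The falls were of Abcc8 (-0.51), the sulfonylurea receptor of ATP-sensitive channels, Crbn (-0.45), which binds the large-conductance channel, Amigo1 (-0.33), an auxiliary of Kv2 channels, the ubiquitin ligase Nedd4 (-0.31), Dpp6 (-0.22), an auxiliary of Kv4 channels, the scaffold Dlg4 (-0.15) and Vapb (-0.15).

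Marker lists of hippocampal cell types were read in the change averaged over genotypes, beside which 12.1% of all genes rose and 20.6% fell, or 17% and 34.6% of those at or above the median level. Of 10 general neuronal markers 3 rose and 5 fell (3 and 3 without both doubted arrays), with list means of 10.63 to 10.67 in control saline, 10.61 to 10.75 in control SE, 10.60 to 10.63 in Astro-D2KO saline and 10.63 to 10.73 in Astro-D2KO SE mice. Of 8 dentate granule cell markers 0 rose and 4 fell, of 8 CA2 and CA3 markers 0 rose and 3 fell, and of 5 CA1 markers none passed. Of 10 interneuron markers 2 rose and 2 fell, of 10 endothelial markers 5 rose and 3 fell, of 6 oligodendrocyte precursor markers 2 fell and of 9 oligodendrocyte markers none passed, although 3 of these 9 fell in Astro-D2KO mice alone. Between genotypes after SE, 8 of these 9 (88.9%) had an unadjusted p under 0.05 in limma, beside 6.12% of all genes, and none passed the adjusted threshold. Their median difference, Astro-D2KO minus control, was -0.38. The list means were 9.16 to 9.52 in control SE and 8.76 to 9.15 in Astro-D2KO SE mice. Under saline 0 of the 9 were under that p. Of 8 thalamic and habenular markers, listed to follow the dissection, 3 rose and 1 fell. The part of cell types and dissection in the changes and genotype differences of the channel genes was not tested.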

How the data were processed

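Hippocampal RNA of 16 mice was measured on arrays. The authors made the deposited log2 values with RMA, per the submitters' processing notes, which corrects background, normalises arrays by quantiles and so removes overall shifts, and summarises probe sets. The log2 base was inferred from the range of 1.70 to 13.79. Arrays have no read depth, and 4 arrays per group limit precision.

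Of 41345 probe sets, 23521 had 1 gene symbol, and the one with the highest mean stood for each of 22180 genes. Limma 3.58.1 in R 4.3.3 fitted a mean per group with empirical Bayes, with Benjamini-Hochberg adjustment over all genes; the code was tested on simulated data. Members, lists and tests were chosen with earlier results of these data known. Given by array were up to 8 rises and 8 falls with the largest averaged changes among members that passed. No member passed in a genotype contrast or the interaction, so the 3 with the smallest p in each were named. Those after SE were given by array, and those under saline and for the interaction by change. Others that passed, members with disagreeing probe sets and cell-type channels were named by change. Subfamily and promoter assignments used gene symbols and RefSeq. Alternatives were scaling, probe-set averaging, filtering of the lowest 25% of genes, other variance models, a replicate block and leaving out arrays. 4 probe sets shared by several symbols, including Kcnj13, are not analysed here. Protein sequences were not used here.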

Additional observations from a re-analysis of the deposited data

Results flagged for a closer look

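Within groups of 4 arrays, 356 groups, of all 86 members and of the check genes Dio2, Npas4 and Fos, were screened for an array far from the others. There were 16 such values, in 9 arrays, where chance gives about 1 in 20 groups. In Astro-D2KO saline replicate 3, 4 members stood high: Kcnt2 read 8.50 beside 7.94 to 7.97 in the other 3 arrays, Kcnc1 8.02 beside 7.83 to 7.86, Kcnk9 7.96 beside 7.73 to 7.75 and Kcnj14 5.93 beside 5.66 to 5.69. In Astro-D2KO SE replicate 4, 3 members stood high: Kcna2 read 8.80 beside 8.46 to 8.49, Kcnn3 8.03 beside 7.52 to 7.57 and Kcne2 6.29 beside 5.63 to 5.71. In control saline replicate 4, Kcnk2 read 7.85 beside 7.44 to 7.51 and Kcnk5 5.34 beside 5.55 to 5.59. Kcnk1 read 10.38 in control saline replicate 1 beside 10.11 to 10.15. Kcna7 read 5.43 in control SE replicate 1 beside 5.11 to 5.16 and 4.98 in Astro-D2KO saline replicate 1 beside 5.14 to 5.16. Kcnv1 read 7.05 in Astro-D2KO SE replicate 3 beside 7.49 to 7.54. Dio2 read 8.91 in the array labelled Astro-D2KO SE replicate 1 beside 7.03 to 7.17. In the array labelled control SE replicate 4, Npas4 read 8.96 beside 11.13 to 11.57 and Kcnj14 5.52 beside 5.82 to 5.85.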

How the results depend on the processing

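Of 58 calls of members in the 3 SE comparisons, 41 passed under every alternative run. Without both doubted arrays the members that rose in control mice went from 4 (4.65%) to 7 (8.14%), while the share of all genes went from 8.42% to 7.81%. Leaving out 1 array gave 3 to 7 (7 without control saline replicate 1, 3 without control SE replicate 1). The members that fell in Astro-D2KO mice, 14, went to 8 to 15 (8 without Astro-D2KO SE replicate 3). The other counts of leaving out 1 array were 7 to 12 falls in control mice, 4 to 6 rises in Astro-D2KO mice, and 5 to 9 rises and 17 to 22 falls averaged over genotypes. The genotype and interaction counts were 0 throughout. Shares of all genes were not counted for the runs that left out 1 array or fitted a replicate block. Averaged calls lost under some alternatives were Kcnt1 (15 of 25), Kcng2 (13), Kcne4 (10), Kcnmb1 (8), Kcnh5 (7) and Kcnd3 (6). Calls within a genotype lost under some alternatives were Kcnab2, Kcnc2 and Kcnj8 in control mice and Kcnk9, Kcnh5, Kcnab2, Kcnc1, Kcnv1, Kcnj9, Kcna6 and Kcnj5 in Astro-D2KO mice. Changes that turned sign were those near 0 in control mice: Kcnc1 (-0.04) became 0.0035 with quantile normalisation repeated and 0.053 without both doubted arrays, with -0.15 to 0.053 over the arrays left out singly; Kcnj5 (-0.01) became 0.018 with centring on the genes tested, chosen after seeing the data, 0.0010 with array weights, with -0.069 to 0.10 over the arrays left out singly. The cause was not tested.

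Same-numbered arrays did not deviate together: 4 of 24 pairs had a correlation over 0.1 (range -0.286 to 0.338), and 5 of 24 matched their own number best. With a replicate block the counts of rises and falls were 4 and 10 (control mice), 4 and 13 (Astro-D2KO mice) and 7 and 20 (averaged), and 0 for the genotype contrasts.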
